A study of Mauremys reevesii with 3 samples.

Results

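The microRNAs described here are miR-10 and miR-196, whose genes lie inside Hox clusters, in small RNA libraries of embryonic Chinese pond turtles, Mauremys reevesii. Of the 1743 rows of the deposited table, 46 were named miR-10 or miR-196 with any letter, copy number or arm, 32 of them miR-10 and 14 miR-196. Most of these rows repeat the same molecule under names from 21 species prefixes, and 7 main rows stand for the distinct abundant sequences. They are the 5p and 3p strands of miR-10a, miR-10b and miR-10c and the 5p strand of miR-196. A prefix such as hsa or aca names the species of the reference sequence, not the animal sampled. The eggs were incubated at 26, 29 or 32 °C until Greenbaum stage 16, the onset of the gonad's sensitivity to temperature, and the dissected tissue was the adrenal-kidney-gonad complex. Each temperature is a single library made from the pooled RNA of 3 samples, so it gives a single value and no difference has a replicate check. The study asks which miRNAs differ between temperatures that give mostly males (cool) or mostly females (warm) in this species.

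A miRNA is a short RNA that guides a repressor complex to messenger RNAs, mainly through its seed, bases 2 to 8. Each hairpin precursor can give a strand from its 5p and its 3p arm, and usually a single arm accumulates. In vertebrates miR-10a lies beside HOXB4 and miR-10b beside HOXD4, while miR-196 genes lie between the Hox genes of groups 9 and 10. They are transcribed in trunk and posterior tissue along with their clusters. In mouse embryos miR-196 cleaves the messenger RNA of HOXB8, and in human cells HOXD10 is a target of miR-10b. The RefSeq gene table of the species (assembly ASM1616193v1) lists 11 HOXA, 10 HOXB, 9 HOXC and 9 HOXD genes. It holds 0 miRNA entries, so the position of these miRNAs in the turtle genome was not analysed here.

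The 7 main sequences are shown because the results turn on which paralog and which arm is counted. They are printed 5′ to 3′ as in the deposited table, with the seed in capitals.
hsa-miR-10a-5p: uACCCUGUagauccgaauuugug
mmu-miR-10b-5p: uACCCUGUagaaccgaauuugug
aca-miR-10c-5p: uACCCUGUagaaucgaauuugug
hsa-miR-10a-3p: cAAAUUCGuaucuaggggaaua
hsa-miR-10b-3p: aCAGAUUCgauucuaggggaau
aca-miR-10c-3p: aCAAAUUCgucucuagggga
gga-miR-196-5p: uAGGUAGUuucauguuguugg
The 3 miR-10 5p strands are 23 bases long and share the seed ACCCUGU. Counted from 1 at the 5′ end, miR-10b differs from miR-10a only by U12A and miR-10c differs from miR-10b only by C13U. Both positions lie outside the seed, in the middle of the strand. The 3p strands as listed have different seeds, AAAUUCG for miR-10a, CAGAUUC for miR-10b and CAAAUUC for miR-10c. miR-196 has the seed AGGUAGU and shares none of these. The 3p row of miR-10c starts 1 base before that of miR-10a, so these 2 listed seeds are the same stretch shifted by 1 base. A row that starts 1 base later than hsa-miR-10a-3p, mdo-miR-10a-3p, had 1019 counts at 26 °C beside 1028. The rows therefore do not settle the start base of the 3p strands.

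The miR-10 5p strands were among the most counted miRNAs in every library, whereas miR-196 and the 3p strands were far less counted. The columns of the table totalled 9348882, 9624436 and 9613861 counts at 26, 29 and 32 °C, with repeated names included. CPM below is the count scaled to a column total of 1000000 per library, so it is a share of the table and not of the reads. hsa-miR-10a-5p had 53230, 52081 and 52544 CPM at 26, 29 and 32 °C. mmu-miR-10b-5p had 47021, 47622 and 52105 CPM, and aca-miR-10c-5p had 24476, 26723 and 28634 CPM. At each temperature they took places 2, 3 and 4 when rows sharing at least 16 consecutive bases are taken as 1 sequence group. gga-miR-196-5p had 440, 508 and 615.2 CPM and stood at place 40, 38 and 32 of the groups. The 46 rows together took 50.3%, 50.5% and 53.4% of all counts at 26, 29 and 32 °C, repeats included. With 1 row per sequence group the totals were 2969285, 3033734 and 2989977 counts, of which the 7 main rows took 39.5%, 40.4% and 43.2%. The miR-10 3p strands had between 85.3 and 203 CPM. The order of the main rows was the same in every library, from miR-10a-5p over miR-10b-5p and miR-10c-5p to miR-196-5p and then the 3p strands of miR-10c, miR-10a and miR-10b. At 32 °C the first 2 were close, with exact counting intervals of 52403 to 52685 CPM for miR-10a-5p and 51964 to 52245 CPM for miR-10b-5p. There the intervals of the 3p strands of miR-10a and miR-10b overlapped. Counts are not divided by length, since each read is taken as 1 whole strand.

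**Figure D1:**
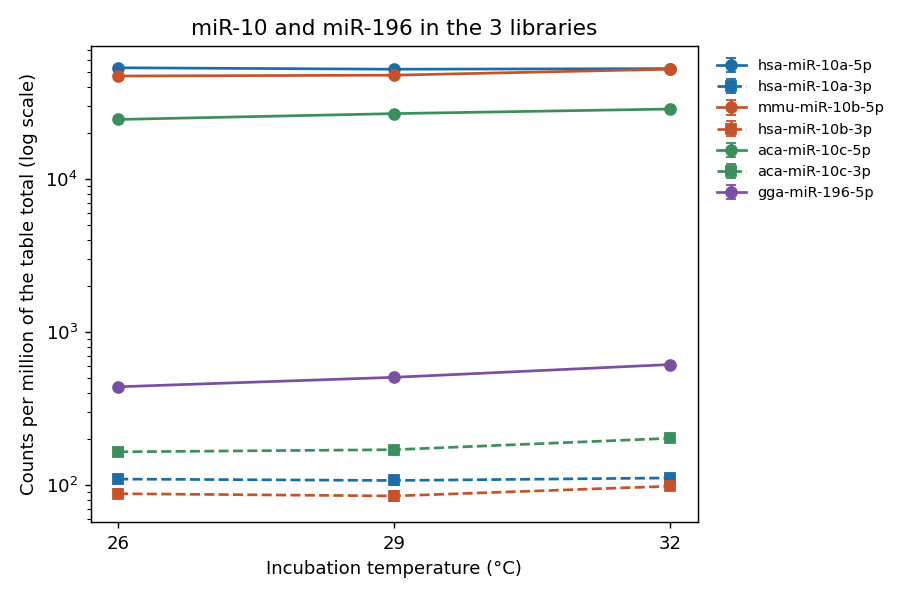
Level of each main row (CPM on a log scale) against incubation temperature in °C, 1 library per point, with 95% exact counting intervals mostly smaller than the points. Solid lines with circles are 5p strands and dashed lines with squares are 3p strands. The miR-10 5p strands lie between 24476 and 53230 CPM, and the other rows lie at or below 615.2 CPM.

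Between the extreme temperatures miR-196 and the miR-10c strands were higher in the 32 °C library, miR-10b slightly so, and miR-10a was nearly level. gga-miR-196-5p had 5914 counts at 32 °C against 4115 at 26 °C, which is 1.40-fold (log2 ratio of CPM 0.48, 95% exact conditional interval 0.43 to 0.54). aca-miR-10c-5p had 275280 against 228821 counts (log2 ratio 0.23, interval 0.22 to 0.23), and aca-miR-10c-3p had 1952 against 1548 (log2 ratio 0.29, interval 0.20 to 0.39). mmu-miR-10b-5p had 500926 against 439596 counts (log2 ratio 0.15, interval 0.14 to 0.15), and hsa-miR-10b-3p had 950 against 825 (log2 ratio 0.16, interval 0.027 to 0.30). Both arms of miR-10b and both arms of miR-10c thus stood above equality. hsa-miR-10a-5p had 505146 against 497644 counts (log2 ratio -0.019, interval -0.024 to -0.013), and hsa-miR-10a-3p had 1075 against 1028 (log2 ratio 0.024, interval -0.10 to 0.15). The sign for miR-10a-5p is not fixed, since it stood at 0.20 with trimmed-mean (TMM) factors and at 0.075 on a total that leaves out the 46 rows. Intervals cover counting error only and hold no spread between animals or pools, which was not measured. The labels name no molecular identifiers, and amplified copies of 1 molecule would make the intervals too narrow.

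No member was 2-fold apart. By the rule of at least 2-fold with an interval that excludes equality, 0 of 7 main rows were called between 32 and 26 °C, where 17.7% of the 814 rows with at least 10 counts, or 25.3% of 371 sequence groups, were called. The members' median log2 ratio was 0.16, beside a median of -0.13 over all 814 rows. That median moved to 0.086 with TMM factors, so a log2 ratio is best read as its distance from it. Relative to the median of all rows, miR-10a-5p stood 0.11 above, miR-10b-5p 0.28 above, miR-10c-5p 0.36 above and miR-196-5p 0.61 above. That median counts repeated names several times. Relative to the median of -0.23 over 371 sequence groups the same 4 stood 0.21, 0.38, 0.46 and 0.71 above, and relative to -0.048 over the abundant groups described next 0.029, 0.20, 0.27 and 0.53 above. Among the 24 other sequence groups with a mean of at least 1000 CPM, log2 ratios ran between -0.64 and 0.61. miR-196, itself under 1000 CPM, lay above 23 of these 24, miR-10b-5p and miR-10c-5p above 21 and miR-10a-5p above 15. All 7 main rows had at least 821 counts in each library, so none was lost to the count minimum.

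The summed main rows had 1291243 counts at 32 °C against 1173577 at 26 °C (log2 ratio 0.098, interval 0.094 to 0.10). This sum is almost entirely miR-10a, miR-10b and miR-10c 5p reads. Part of any increase enters the total itself, and on a total without the 46 rows the log2 ratio was 0.19. With TMM factors it was 0.31 and with median-of-ratios size factors 0.26. The direction of the sum was the same under each of these scalings, while its size ran from 0.098 to 0.31.

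The 29 °C library lay close to the 26 °C library for miR-10a and miR-10b, and miR-10c-5p and miR-196-5p were somewhat higher in it. aca-miR-10c-5p had 257191 counts at 29 °C against 228821 at 26 °C (log2 ratio 0.13, interval 0.12 to 0.13). gga-miR-196-5p had 4885 against 4115 (log2 ratio 0.21, interval 0.15 to 0.27). The log2 ratio was 0.018 for mmu-miR-10b-5p (0.012 to 0.024) and -0.031 for hsa-miR-10a-5p (-0.037 to -0.026). Over the 24 other abundant groups the median absolute log2 ratio was 0.20. The values of miR-10a-5p and miR-10b-5p are small beside it, that of miR-10c-5p was also below it and that of miR-196-5p was close to it. Of these groups miR-196-5p lay above 17, miR-10c-5p above 14, miR-10b-5p above 12 and miR-10a-5p above 10. The intervals of all 3 miR-10 3p strands included equality, with log2 ratios between -0.049 and 0.047. By the 2-fold rule 0 of 7 main rows were called, against 10.8% of 812 rows and 15.1% of sequence groups. The members' median was 0.018, beside 0.00064 over all rows.

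Between 32 and 29 °C every main row had a positive log2 ratio, and the interval of hsa-miR-10a-3p included equality. With counts as high as those of the 5p rows an interval excludes equality at small ratios. How many of all rows did so was not counted here. gga-miR-196-5p had 5914 counts at 32 °C against 4885 at 29 °C (log2 ratio 0.28, interval 0.22 to 0.33). mmu-miR-10b-5p had 500926 against 458331 (log2 ratio 0.13, interval 0.12 to 0.14), and aca-miR-10c-5p had 275280 against 257191 (log2 ratio 0.10, interval 0.092 to 0.11). hsa-miR-10a-5p stood at 0.013 (0.0071 to 0.018). By the 2-fold rule 0 of 7 were called, against 12.4% of 807 rows and 18.3% of sequence groups. The members' median was 0.13, beside -0.18 over all rows, and all 7 main rows lay above at least 18 of the 24 other abundant groups. The 32 °C library is shared with the comparison against 26 °C, so these values are not separate evidence. Along the 3 temperatures miR-196-5p, miR-10b-5p and both arms of miR-10c were higher in each warmer library. The first step of miR-10b-5p was small, with a log2 ratio of 0.018 for 29 over 26 °C, and miR-10b-3p was not higher at 29 than at 26 °C. For miR-10c-3p the intervals overlapped between 26 and 29 °C.

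**Figure D2:**
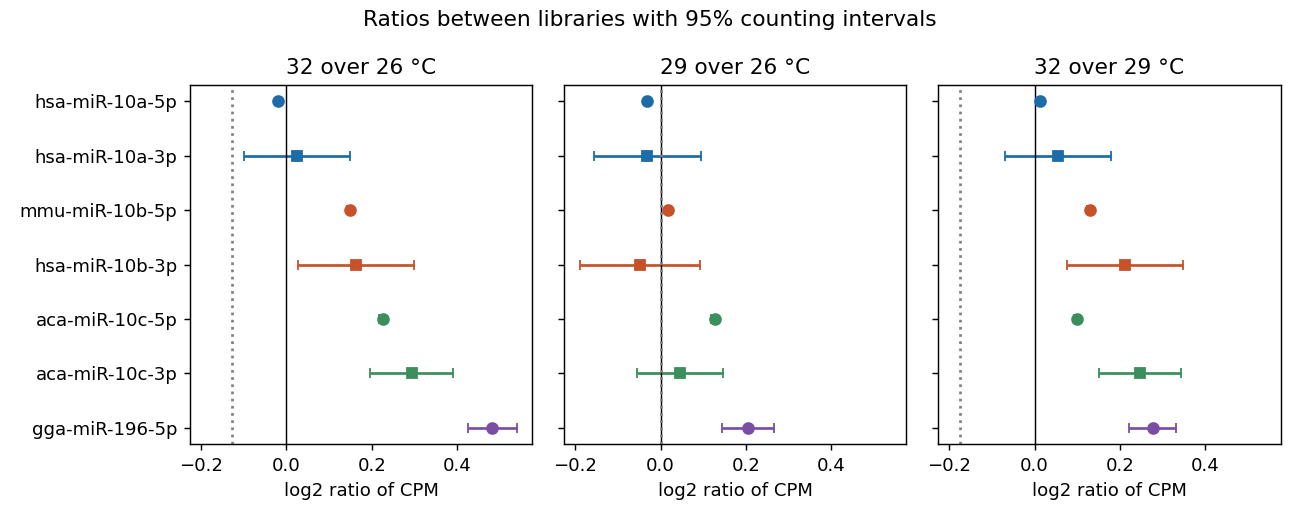
Log2 ratio of CPM for each main row (rows of the plot) in the 3 pairs of libraries (panels), with 95% exact conditional counting intervals. The solid line marks equality and the dotted line the median of all rows with at least 10 counts. At 32 over 26 °C the values run from miR-10a near 0 through miR-10b and miR-10c to miR-196 at 0.48. The miR-10 paralogs stand in this order on both arms, but the 3p interval of miR-10b overlaps those of miR-10a and miR-10c.

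Proportions among paralogs do not depend on scaling between libraries. Among the main rows they moved away from miR-10a towards miR-10b and miR-10c in the warmest library. The row ssa-miR-10d-5p, near miR-10b in sequence but no main row, went from 143590 counts at 26 °C down to 124404 at 32 °C. hsa-miR-10a-5p made up 42.7%, 41.2% and 39.4% of the 3 miR-10 5p rows at 26, 29 and 32 °C. mmu-miR-10b-5p made up 37.7%, 37.7% and 39.1%, and aca-miR-10c-5p 19.6%, 21.1% and 21.5%. With all rows of a name summed the order changed, to 36.1%, 34.9% and 33.1% for miR-10a, 52.5%, 52.8% and 54.6% for miR-10b and 11.4%, 12.3% and 12.4% for miR-10c. These sums hold 3 rows of miR-10a, 7 of miR-10b and 3 of miR-10c, repeats included, and so weight each paralog by its number of names. The exact binomial interval of miR-10b was 37.6% to 37.8% both at 26 and at 29 °C, so its share was not told apart there, whereas the other shares lay outside each other's intervals. Between 32 and 26 °C the log2 odds ratio of miR-10b over miR-10a was 0.17 (Woolf 95% interval 0.16 to 0.17), and that of miR-10c over miR-10a was 0.25 (0.24 to 0.25). On the 5p arm miR-10c gained on miR-10a mainly between 26 and 29 °C, with log2 odds ratios of 0.16 for 29 over 26 °C and 0.087 for 32 over 29 °C. miR-10b gained mainly between 29 and 32 °C, with 0.050 for 29 over 26 °C and 0.12 for 32 over 29 °C. Since miR-10a, miR-10b and miR-10c differ by a single base from their nearest paralog, the split may depend on how mismatched reads were assigned, which is not given in the sources used here.

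On the 3p strands, counted from separate reads, miR-10c also gained on miR-10a at 32 over 26 °C, while the share of miR-10b among the 3p rows was not told apart between these libraries. Placed without gaps, the 3p rows of miR-10a and miR-10c differ at 1 of 19 bases, closer than their 5p strands with 2 of 23, and that of miR-10b differs from them at 3 of 21 and 3 of 20. The limit on read assignment thus holds for the 3p rows too. aca-miR-10c-3p made up 45.5%, 47.0% and 49.1% of the 3 miR-10 3p rows at 26, 29 and 32 °C, and hsa-miR-10a-3p 30.2%, 29.6% and 27.0%. hsa-miR-10b-3p made up 24.3%, 23.4% and 23.9%, with exact binomial intervals that overlapped, 22.6% to 25.2% at 32 °C against 22.8% to 25.7% at 26 °C. For 32 over 26 °C, the 3p log2 odds ratio of miR-10c over miR-10a was 0.27 (exact conditional interval 0.11 to 0.43), beside 0.25 on the 5p arm. For miR-10b over miR-10a it was 0.14 (-0.046 to 0.32) on the 3p arm, an interval that includes equality and also the 5p value of 0.17. For 29 over 26 °C the 3p intervals of all 3 paralog pairs included equality, and 3401 and 3503 counts in all do not resolve the 5p differences there. The 3p value of miR-10c over miR-10a was 0.077 (-0.085 to 0.24) for 29 over 26 °C. It was 0.19 (0.035 to 0.35) for 32 over 29 °C, the larger step here, unlike on the 5p arm, though these 2 intervals overlap. Both arms come from the same pooled RNA, so they do not replicate the temperature difference.

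**Figure D3:**
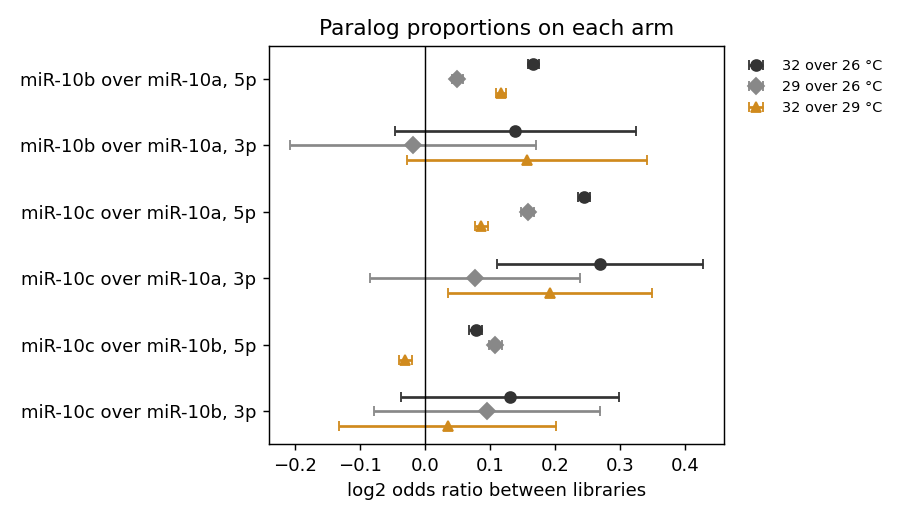
Log2 odds ratio of a paralog over another between 2 libraries, separately for the 5p and 3p strands, with 95% intervals (Woolf for 5p, exact conditional for 3p). Black circles are 32 over 26 °C, grey diamonds 29 over 26 °C and orange triangles 32 over 29 °C. At 32 over 26 °C miR-10c over miR-10a stands at 0.25 on the 5p arm and 0.27 on the 3p arm.

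The 5p strand dominated each miR-10 hairpin, least so in miR-10c. There were 484, 484 and 470 reads of hsa-miR-10a-5p per read of hsa-miR-10a-3p at 26, 29 and 32 °C. The ratio was 533, 558 and 527 for miR-10b and 148, 156 and 141 for miR-10c. The 3p strand thus took 0.67%, 0.64% and 0.70% of the miR-10c hairpin (exact binomial interval at 26 °C 0.64% to 0.71%), against 0.21% of miR-10a at each temperature. Between libraries the 5p to 3p ratio stayed close for miR-10a, with a log2 odds ratio of -0.043 (-0.17 to 0.082) for 32 over 26 °C, for miR-10b with -0.015 (-0.15 to 0.12) and for miR-10c with -0.068 (-0.17 to 0.029). An exception was miR-10c between 32 and 29 °C, at -0.15 (-0.24 to -0.052). The order of abundance also differed by arm, with miR-10c lowest of the miR-10 paralogs on the 5p arm and highest on the 3p arm among the main rows. With all rows of a name summed miR-10c was lowest on both arms, at 2034 3p counts at 32 °C beside 4914 for miR-10b and 3221 for miR-10a. These 3p sums hold 2 rows of miR-10c, 8 of miR-10b and 4 of miR-10a, repeats included, so they do not rank the paralogs. They go by letter, and dre-miR-10c-3p, nearest to miR-10a in sequence, is summed under miR-10c.

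miR-196 has no 3p strand among the main rows, but aca-miR-196c-3p, a passenger strand named after the lizard, was counted 331, 293 and 375 times at 26, 29 and 32 °C. Against it gga-miR-196-5p had a ratio of 12.4, 16.7 and 15.8. The log2 odds ratio of 5p over 3p was 0.34 (0.12 to 0.57) for 32 over 26 °C, 0.42 (0.18 to 0.66) for 29 over 26 °C and -0.080 (-0.31 to 0.15) for 32 over 29 °C. The 3p row itself, for 32 over 26 °C, stood at 0.14 on the log2 scale (-0.077 to 0.36), an interval that includes equality. Vertebrates carry several miR-196 genes with like 5p strands, and the names do not show that both rows come from the same hairpin. The row was chosen after its values were seen.

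Some well counted rows match a main strand but for an end. Of miR-10b, gga-miR-10b-5p, oar-miR-10b and rno-miR-10b-5p differ at an end and held 99.96% to 100% of mmu-miR-10b-5p in every library. Against this, 2 other rows near miR-10b did not keep a constant proportion to their main row. They are printed with the seed in capitals.
sha-miR-10b: uACCCUGUagaaccgaau
ssa-miR-10d-5p: cACCCUGUagaaccgaauuugu
sha-miR-10b is the first 18 bases of mmu-miR-10b-5p, and ssa-miR-10d-5p differs from it by U1C and ends 1 base earlier. sha-miR-10b had 319507, 349818 and 396350 counts at 26, 29 and 32 °C, which is 72.7%, 76.3% and 79.1% of mmu-miR-10b-5p. ssa-miR-10d-5p had 143590, 132332 and 124404 counts, or 32.7%, 28.9% and 24.8%. It went against its paralog. For 32 over 26 °C its log2 ratio was -0.25 (-0.26 to -0.24), beside 0.15 for mmu-miR-10b-5p and 0.27 (0.26 to 0.28) for sha-miR-10b. For miR-10a the 18-base row sha-miR-10a held 86.9%, 88.0% and 87.8% of hsa-miR-10a-5p. The row dps-miR-10, which starts at base 2 of miR-10a, held 58.0%, 57.0% and 57.9%, and dme-miR-10-5p, which adds G23U, had the same counts as dps-miR-10. For miR-10c, xtr-miR-10c with U1C held 97.2%, 97.1% and 96.9% of aca-miR-10c-5p, and tgu-miR-196, without the last base, held 88.6%, 88.8% and 87.3% of gga-miR-196-5p. Of the 7 rows described after the printed sequences, the 2 near miR-10b moved the most along the temperatures. How reads were placed on rows of different length and precursor is not given in the sources used here, and its part in these percentages was not tested.

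**Figure D4:**
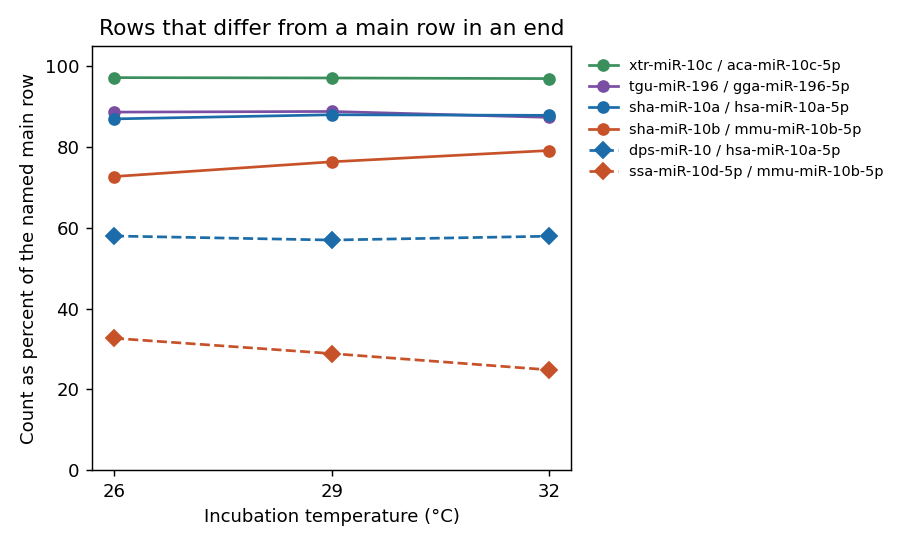
Count of 6 rows as a percentage of their main row (vertical axis from 0) against incubation temperature in °C, 1 library per point and no error bars. sha-miR-10b climbs along the temperatures to 79.1% at 32 °C and ssa-miR-10d-5p declines to 24.8%, while the rows of miR-10a, miR-10c and miR-196 change little.

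The remaining rows repeat a main strand or hold few counts. Apart from the main rows, 12 of the 46 lay within 10% of their nearest main row in every library, including gga-miR-10b-5p, oar-miR-10a, hsa-miR-196a-5p and xtr-miR-10c. A further 16 rows differed from a main row at 1 base and held at most 10.04% of its counts. The largest of these was dre-miR-10c-5p, which is miR-10a with A16G despite its letter, with 1496, 1532 and 1405 counts. dre-miR-10d-5p and ola-miR-10d, both miR-10b with U19G, had 327, 346 and 374. On the 3p arm were dre-miR-10c-3p and oha-miR-10a-3p beside miR-10a, dre-miR-10b-3p and pol-miR-10b-3p beside miR-10b and oha-miR-10b-3p beside miR-10c, with 1 to 104 counts. The 8 such rows of miR-196 were aca-miR-196c-5p, dre-miR-196b, dre-miR-196c, hhi-miR-196, hsa-miR-196b-5p, mdo-miR-196b, rno-miR-196c-5p and xtr-miR-196b, with 0 to 22 counts each. Mammalian miR-196b, with A12C, was thus at 0, 0 and 2 counts, where a count of 0 allows up to 0.32 CPM at 26 °C and 0.31 CPM at 29 °C. The other rows, with no main row within 1 mismatch, were aca-miR-196c-3p, oha-miR-196a-3p, gga-miR-196-1-3p, gsa-miR-10b-5p and sme-miR-10b-5p, the last 4 with at most 14 counts.

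Among all rows of these names a single one passed the 2-fold rule. hhi-miR-196, which is miR-196 with U9C, had 21 counts at 32 °C against 7 at 26 °C (log2 ratio 1.54, interval 0.26 to 3.02). Its 19 counts at 29 °C against the same 7 gave 1.40 on the log2 scale (0.086 to 2.89). That is 1 of 38 rows with at least 10 counts for 32 over 26 °C, where 17.7% of the table was called, and the row held at most 0.39% of the counts of gga-miR-196-5p. Outside the 46 rows, 1 predicted row (novel_4) came within 2 mismatches of a main strand on either strand, with 0, 3 and 1 counts.

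The nearest relatives of miR-10 by sequence are miR-99 and miR-100, which in vertebrates lie outside the Hox clusters. hsa-miR-100-5p is shown because its seed differs from that of miR-10 although most of the strand is the same.
hsa-miR-100-5p: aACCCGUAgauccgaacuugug
When base 6 of miR-10a is left out, the strands differ at 2 of 22 bases. hsa-miR-100-5p had 58120, 66675 and 61232 counts at 26, 29 and 32 °C and aca-miR-99b-5p had 102968, 132093 and 110289, so both were highest at 29 °C. Their log2 ratios were 0.035 (0.019 to 0.051) and 0.059 (0.047 to 0.071) for 32 over 26 °C, and -0.12 (-0.14 to -0.11) and -0.26 (-0.27 to -0.25) for 32 over 29 °C. aca-miR-99b-3p stood at -0.29 (-0.35 to -0.24) and bta-miR-99a-5p at -0.16 (-0.27 to -0.054) for 32 over 26 °C, and the second of these changed sign to 0.055 with TMM factors. For 32 over 29 °C all 4 of these relatives had negative log2 ratios on the table total, but with TMM factors hsa-miR-100-5p moved to 0.076 and bta-miR-99a-5p to 0.043. The 7 main rows were positive for 32 over 29 °C under both scalings, at 0.21 to 0.47 with TMM factors. No miR-615 row, from the HOXC cluster of mammals, was analysed here.

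Likeness of profile was measured as the Euclidean distance between log2 CPM centred over the 3 libraries, among the same 24 abundant sequence groups. The nearest to the summed main rows was gga-miR-199-3p, a mesenchymal miRNA, at a distance of 0.071 with log2 ratios of 0.066 for 32 over 26 °C and -0.021 for 32 over 29 °C. It was followed by hsa-miR-363-3p at 0.086, bfl-miR-125b and hsa-miR-101-3p at 0.14 and hsa-miR-103a-3p at 0.15. Nearest to miR-196 was gga-miR-7 at 0.090, with 33098 counts at 32 °C against 21124 at 26 °C and a log2 ratio of 0.61, then bfl-miR-125b at 0.19. The others were gga-miR-199-3p, efu-let-7c and hsa-let-7f-5p at 0.30 to 0.33. With 3 libraries a short distance is a description only.

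miRNAs taken as markers of parts of the dissected block were present and moved between the libraries. The lists are named after a tissue, and which tissue the reads came from was not tested. The gonad miRNA miR-202 (mmu-miR-202-5p) had 802, 1018 and 327 CPM at 26, 29 and 32 °C. The kidney list (miR-192, miR-194, miR-215 and miR-204, the last with at most 1 count) summed to 4930, 4096 and 3395 CPM, a log2 ratio of -0.54 for 32 over 26 °C. The mesenchyme list (miR-143, miR-145, miR-199a and miR-214) summed to 25486, 30425 and 25725 CPM, a log2 ratio of 0.013. With TMM factors these became -0.32 for the kidney list and 0.23 for the mesenchyme list. The kidney sum is mostly miR-192, with 25229 counts at 32 °C against 38237 at 26 °C and a log2 ratio of -0.64, or -0.43 with TMM factors. miR-215 stood at -0.35, or -0.13 with TMM factors, and miR-194 at -0.11, which changed sign to 0.11 with TMM factors. For 32 over 26 °C miR-202, miR-192 and miR-215 were thus lower under both scalings, and miR-194 was not. For 29 over 26 °C, where miR-196 and miR-10c-5p were also higher, miR-202 stood at 0.34, or 0.36 with TMM factors. There miR-192 stood at -0.31, or -0.29 with TMM factors. The other kidney miRNAs moved less, miR-215 at -0.12, or -0.10 with TMM factors, and miR-194 at -0.076, or -0.060 with TMM factors. Among miRNAs of other tissue, liver miR-122 had 602, 147 and 175 CPM and the pancreas list 170, 90.5 and 83.3. The skeletal muscle list had 147, 113 and 104 CPM. Of blood cells, the leukocyte list had 47.7, 93.5 and 45.5 CPM. The red cell list had 5.24, 2.08 and 2.81 CPM, with miR-451 at 44, 9 and 25 counts and miR-144 at 5, 11 and 2. Within the skeletal muscle list miR-1 had 36, 58 and 30 counts, miR-133 573, 505 and 534, and miR-206 766, 528 and 440. The nervous tissue list had 5.13, 11.1 and 11.1 CPM, with miR-9 at most 2 counts and no miR-124 row analysed here. The part of tissue composition in the miR-10 and miR-196 ratios was not tested. In pooled tissue, a smaller share of a cell type and less of a miRNA per cell cannot be told apart.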

How the data were processed

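The data were 3 small RNA libraries, 1 per incubation temperature, each from RNA pooled over 3 samples, per the labels' protocols. The deposited table gave raw read counts and TPM per row, per the file headers. TPM equalled the count scaled to a column total of 1000000 with no length term, and both were taken from columns matched by the sample titles. FastQC and Bowtie are named in the submitters' processing notes. Their versions, the miRNA reference, the mismatch limit and the fate of reads that match several rows are not given in the sources used here.

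CPM is the same scaling computed from the counts, where 1 count is 0.107, 0.104 and 0.104 CPM at 26, 29 and 32 °C. Pairs of libraries were compared by the log2 ratio of CPM with a 95% exact conditional (Clopper-Pearson) interval, and no p-values are given with 1 library per temperature. A row with at least 10 counts in either library was called when at least 2-fold apart with an interval that excludes equality. Shares have exact binomial intervals, and odds ratios have exact conditional intervals or, for pairs of 5p rows, Woolf intervals. A count of 0 has a floor of 3 counts. Sequence groups join, link by link, rows that share a run of 16 bases with either orientation, each represented by its most counted row. Rows of the 2 names were placed ungapped on the nearest main row.

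All main rows are named. So is every other row of the 2 names that differs from its main row within the bases shared, or by over 10% in counts. The 5 profiles nearest to the summed main rows and to miR-196 are named too. The members and lists were chosen with earlier results of these data known. As alternatives, libraries were scaled by edgeR 4.0.16 (TMM) or DESeq2 1.42.0 (median of ratios) or by other totals, with other count minimums and interval rules, or with summed rows. Ratios and calls were tested on simulated data. Calculations used Python 3.11.15, numpy 2.4.6, scipy 1.17.1, pandas 2.3.3, matplotlib 3.10.9 and R 4.3.3.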

Additional observations from a re-analysis of the deposited data

How the results depend on the processing

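No paired analysis was possible because there is only 1 library a temperature, and none could be left out. For the summed main rows the log2 ratio of 0.098 for 32 over 26 °C became 0.31 with TMM factors, 0.26 with DESeq2 size factors, 0.19 on a total without miR-10 and miR-196 rows, 0.13 on the total of 1 row per sequence group (chosen after seeing the data) and 0.087 with all rows of the names. In the same order, 0.020 for 29 over 26 °C became 0.037, 0.031, 0.027, 0.031 and 0.0069. For 32 over 29 °C, 0.077 became 0.27, 0.23, 0.16 and 0.097 under those scalings. The scaling shifts follow from the totals, and each of these values kept its direction. The deposited TPM gave the same values. hsa-miR-10a-5p for 32 over 26 °C changed sign, from -0.019 to 0.20 with TMM factors, 0.14 with DESeq2 size factors, 0.075 without the miR-10 and miR-196 rows and 0.012 per sequence group. Under each of these 4 scalings all 7 main rows were above 0 for 32 over 26 °C and for 32 over 29 °C, and 4 of 7 for 29 over 26 °C. The median of all rows was itself above 0 for 32 over 26 °C with TMM (0.086) and DESeq2 factors (0.034). For 32 over 29 °C it was above 0 with TMM factors (0.021). Under the other scalings of these 2 pairs it was below 0. The count past 2-fold stayed at 0 under every scaling run, and was 1 for 32 over 26 °C and 1 for 29 over 26 °C over all rows of the names. The other count minimums and the stricter interval rule also gave 0 but could not change it. Every main row passed each minimum, and a stricter rule cannot raise a count of 0. Depth limits the 3p strands and aca-miR-196c-3p. Summing repeated rows weights each paralog by its number of names. It put miR-10b above miR-10a among the 5p paralogs at every temperature, moved miR-10c from 19.6% to 11.4% at 26 °C, and moved the percentage of 3p reads of miR-10c from 0.67% to 0.36% there. The log2 odds ratios for 32 over 26 °C kept their sign (chosen after seeing the data). On the 5p arm they were 0.18 for miR-10b over miR-10a and 0.24 for miR-10c over miR-10a, and on the 3p arm 0.14 and 0.24. Most of the summed counts are the main rows and their near repeats, so the kept sign says little. The sums go by letter and leave out ssa-miR-10d-5p, near miR-10b, with a log2 ratio of -0.25. They also leave out dps-miR-10 and dme-miR-10-5p, near miR-10a, at -0.020.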
